A study of Mus musculus with 192 samples.

Results

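The immunity-related GTPases are described here by 7 genes, taken by name from the 23481 genes of the count table: Irgm1, Irgm2, Igtp, Iigp1, Ifi47, Tgtp1 and Tgtp2. They were followed across all 64 groups of the study. The cells were bone marrow-derived dendritic cells of female C57BL/6J mice aged 6 to 8 weeks, grown with GM-CSF at 15 ng/mL. They were stimulated for 6 hours with agents that act on receptors of innate immunity. The 7 agents, called ligands here, were PAM, LPS, HMW, zymosan (given as depleted in the labels and called Zymosan here), SeV, 3',3'-cGAMP (cGAMP here) and CpGB. Each was given alone (7 groups), in all 21 pairs and in all 35 triplets, beside unstimulated cells (Ctrl), with 3 libraries a group. All groups share the strain, the sex and the GM-CSF culture, and the labels name no genetic change. The wells were filled with 100000 cells each, so every library is a bulk sample in which more RNA per cell and more cells of a responding kind cannot be told apart. Nothing in the labels says that the 3 libraries of a group came from separate mice or cultures, so the p-values below measure only the spread between these libraries, which may be technical. Of the 7 genes, 5 had enough counts to be tested, and Tgtp1 and Tgtp2 did not.

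Immunity-related GTPases are large GTPases that interferons induce in mouse cells. They collect on the vacuoles in which bacteria and protozoa live inside a cell, and help to break those vacuoles open. The family has regulators and effectors. Irgm1, Irgm2 and Igtp (also called Irgm3) carry a GMS motif in the nucleotide-binding site, sit on the membranes of the cell itself and hold the effectors inactive there. Iigp1 (Irga6), Ifi47 (Irgd) and the near-identical Tgtp1 and Tgtp2 (both Irgb6) carry the usual GKS motif and are the effectors that load onto the vacuole. Loading depends on the autophagy conjugation machinery, which attaches proteins such as Gabarapl2 to membranes.

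In the RefSeq annotation of GRCm38.p6, 6 of the 7 genes lie on chromosome 11: Irgm1 at chr11:48865245-48871420, Tgtp1 at chr11:48985329-48992246, Tgtp2 at chr11:49057196-49064212, Ifi47 at chr11:49076587-49096987, Igtp at chr11:58199556-58207592 and Irgm2 at chr11:58214977-58222783. Iigp1 lies elsewhere in the genome. The promoter table holds a window from 250 bases before to 50 bases after the start site for 6 of the 7 genes (all but Iigp1). These windows were searched on both strands for letters of 3 elements. The first was a form of the interferon-stimulated response element (ISRE), known from promoters that type I interferon induces: GAAA, any 2 bases, GAAA. The second was a form of the gamma-activated site (GAS), known from promoters that interferon gamma induces: TTCNNNGAA. The last was a form of the kB site, to which NF-kB binds: GGG, any 2 bases, TTTCC. Among all 32851 windows of the table, 3.44% hold the ISRE form, 8.3% the GAS form and 1.63% the kB form. The 100 bases before the start site are printed for the 5 genes with a match, because these genes share letters that few promoters hold; capitals mark the matched bases, and each sequence reads 5′ to 3′ towards the start site. They lie at chr11:48871421-48871520 (minus strand), chr11:58214877-58214976 (plus strand), chr11:58199456-58199555 (plus strand), chr11:48992247-48992346 (minus strand) and chr11:49064213-49064312 (minus strand), in that order, all from RefSeq on GRCm38.p6.
Irgm1: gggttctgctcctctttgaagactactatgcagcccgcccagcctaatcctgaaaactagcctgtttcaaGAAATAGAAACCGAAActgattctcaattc
Irgm2: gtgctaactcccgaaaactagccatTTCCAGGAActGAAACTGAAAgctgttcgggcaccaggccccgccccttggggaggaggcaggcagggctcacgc
Igtp: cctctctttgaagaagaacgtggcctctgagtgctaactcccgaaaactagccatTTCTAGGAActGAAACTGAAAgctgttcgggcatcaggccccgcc
Tgtp1: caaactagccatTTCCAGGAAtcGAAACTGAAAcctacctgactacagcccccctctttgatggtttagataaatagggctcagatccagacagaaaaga
Tgtp2: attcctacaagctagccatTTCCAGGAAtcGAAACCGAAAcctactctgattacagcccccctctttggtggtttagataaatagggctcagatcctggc

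The same layout recurs in 4 of these 5 sequences. In Irgm2, Igtp, Tgtp1 and Tgtp2 a GAS form is followed after 2 bases by an ISRE form. The first base of the GAS form lies 75 bases before the start site in Irgm2, 45 in Igtp, 88 in Tgtp1 and 81 in Tgtp2. This layout, on either strand, is in 5 of the 32851 windows (0.0152%), and it was put together after the matches had been seen. The fifth window is that of Gm12185, at chr11:48927133-48927432 and so apart from that of Tgtp1. Gm12185 is among the further IRG-related genes counted below, and it overlaps Tgtp1 on the same strand in GENCODE M21. Irgm2 and Igtp share a stretch of 61 identical bases in their windows, and Tgtp1 and Tgtp2 share 27. Irgm1 has no GAS form but holds 2 overlapping ISRE forms, the first base of the first lying 30 bases before the start site and that of the second 24. Ifi47 has none of the 3 forms in its window, and none of the 6 windows has the kB form. In GENCODE M21, Ifi47 overlaps Olfr56 on the same strand by 20388 bases. Which start site these cells used was not measured, so the window may miss the promoter of Ifi47. A match of letters is not a measured binding site, and no binding was measured in these samples.

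Library totals ran from 46564 to 610234 UMI counts, with a median of 171616.5. The 3 Ctrl libraries were shallow (61823 to 89530), and their mean of 73430 ± 14390 (SD, n = 3) was the lowest of the 64 groups. Levels below are counts per 1000000 (CPM) of the counts in tested genes, scaled by TMM factors, which ran from 0.8365 to 1.268 and were highest in Ctrl. The 8 listed dendritic cell markers summed to group means of 4899 to 6663 CPM, but unevenly. H2-Ab1 had 59353 UMIs in all libraries together, Cd74 32770 and Itgax 10700, while Zbtb46 had 99 and Flt3 95. Csf1r and C1qb, listed for macrophages, had 26397 and 21246. Markers of macrophages (5 of 6 listed genes in the table) summed to 1293 to 2931 CPM and those of neutrophils (6 of 7) to 459.6 to 917.9 CPM, while T and NK cell markers reached at most 2.951 CPM, with Cd3e and Gzma at 0, the 4 B cell markers at most 18.67 CPM, and the 4 erythroid markers were at 0 throughout. Ifng, which encodes the classical inducer of these GTPases, had 1 UMI in all libraries together.

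Reads of close relatives can be split or lost in counting. Of the 50-base stretches in the transcripts of Tgtp1, 81.2% also occur in another gene, and for Tgtp2 the share is 86.6%, nearly all of it in each other. This share is 11.8% for Igtp and 7.77% for Irgm2, which mainly share with each other. It is 2.54% for Ifi47 (shared with the overlapping Olfr56), 1.69% for Iigp1 and 0.31% for Irgm1. In GENCODE M21, Igtp and Irgm2 also overlap on the same strand by 7974 bases, while their RefSeq coordinates given above do not overlap. Tgtp1 had 9 UMIs in 8 libraries and Tgtp2 21 UMIs in 19 libraries. All 9 of Tgtp1 and 18 of the 21 of Tgtp2 fell in the 49 groups that held LPS, SeV or cGAMP, which is 0.369 CPM (exact 95% Poisson interval 0.169 to 0.701, counting error only) for Tgtp1 and 0.738 (0.438 to 1.17) for Tgtp2. In the 15 groups without these ligands the values were 0 (0 to 0.456) and 0.371 (0.0765 to 1.08), so a difference was not detectable at this depth. Both were at 0 in Ctrl, which allows up to 11.7 CPM over its 3 libraries. The text below is therefore about the other 5 members, and the true level of Irgb6 transcripts cannot be read from these counts.

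The first question was how each ligand alone moved the family. Against Ctrl, LPS, SeV and cGAMP raised all 5 tested members, regulators and effectors alike. CpGB and HMW each raised 3 (Irgm1, Igtp and Ifi47), and PAM and Zymosan each raised 2 (Irgm1 and Igtp). No member fell (0 of 35 tests, and 0 at an unadjusted p under 0.05, with edgeR). A gene was called when edgeR's quasi-likelihood test gave an adjusted p (Benjamini-Hochberg) under 0.05 with a log2 fold change of at least 1. In all, 25 of 35 tests were called higher, against a background of 8.7% of all tested genes called higher over the 7 ligands and 4.95% called lower. The background differed between ligands, from 14.6% higher for LPS, 11.7% for cGAMP, 10.8% for CpGB and 10.5% for SeV to 8.01% for PAM, 4.43% for Zymosan and 0.953% for HMW. All 7 comparisons share the 3 Ctrl libraries. All 3 libraries of a ligand lay above every Ctrl library for 5 of the 5 members with LPS, SeV and cGAMP, where 21.8%, 17.2% and 19% of all tested genes did. The same held for 4 members with CpGB (18.6% of tested genes) and for 3 each with PAM (16.6%), Zymosan (13.9%) and HMW (9.09%).

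**Figure D1:**
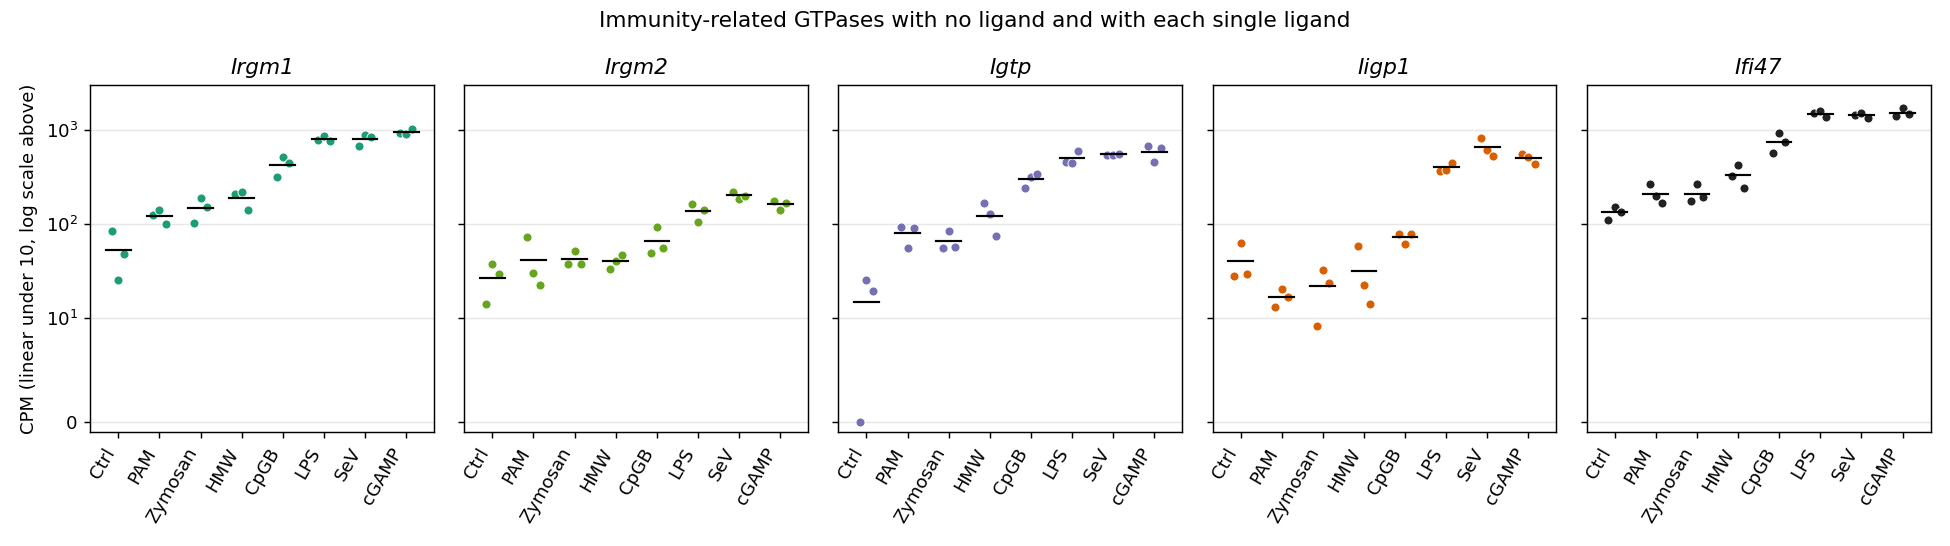
Levels of the 5 tested members in every library of Ctrl and the 7 single ligands. The y axis is CPM, linear under 10 and on a log scale above; points are libraries and bars are means of 3. In all 5 members the libraries of LPS, SeV and cGAMP lie above every Ctrl library, while Iigp1 with PAM, Zymosan or HMW does not.

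Among the regulators, Irgm1 stood at 83.1, 24.9 and 48.0 CPM in the 3 Ctrl libraries (6, 2 and 5 counts). It was at 926, 899.8 and 1025 CPM with cGAMP, at 774, 854 and 756 with LPS, and at 669, 874 and 840 with SeV. These 9 libraries were all far above Ctrl, and those of the 3 ligands overlapped or nearly touched. The log2 fold change was 4.21 ± 0.40 (SE) for cGAMP (adjusted p = 1.728e-33), 3.95 ± 0.40 for LPS and 3.96 ± 0.40 for SeV. CpGB gave an intermediate level of 311, 516 and 447 CPM, a log2 fold change of 3.10 ± 0.41. HMW gave 208, 219.7 and 139 CPM, Zymosan 101, 186 and 149 CPM, and PAM 125, 141 and 100.0 CPM. All of these libraries were above the highest Ctrl library, and the log2 fold changes were 1.86 ± 0.42, 1.55 ± 0.43 and 1.26 ± 0.43.

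Igtp, the regulator also known as Irgm3, started from 0, 2 and 2 counts in Ctrl. Its Ctrl libraries stood at 0, 24.9 and 19.2 CPM, where the count of 0 allows up to 41.5 CPM. It reached 669, 456 and 632 CPM with cGAMP, 545, 544 and 549 with SeV and 454, 443 and 595 with LPS. The summed counts put the ratio to Ctrl at 36.8 for cGAMP with an exact 95% interval of 14.2 to 136, so the size of the rise is poorly bounded from above. CpGB raised Igtp to 298 ± 50.6 CPM (SD, n = 3), HMW to 122 ± 46.1, PAM to 78.7 ± 20.3 and Zymosan to 64.8 ± 15.9. The log2 fold changes were 4.24 ± 0.76, 2.83 ± 0.78, 2.26 ± 0.79 and 2.00 ± 0.80.

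Irgm2, the remaining regulator, had 1, 3 and 3 counts in Ctrl (13.9, 37.4 and 28.8 CPM). With SeV it was at 219.8, 184 and 197 CPM, with cGAMP at 174, 140.2 and 166, and with LPS at 164, 105 and 139. These 9 libraries did not overlap Ctrl, and the log2 fold changes were 2.83 ± 0.56, 2.51 ± 0.57 and 2.27 ± 0.57. CpGB gave 48.5, 91.9 and 55.3 CPM, above every Ctrl library but not called (log2 1.29 ± 0.59, adjusted p = 0.06979). That call turns on single libraries: without CpGB replicate 1 the adjusted p was 0.03127, and without replicate 3 it was 0.0495. With PAM, HMW and Zymosan the means were 41.5, 40.0 and 41.8 CPM, and their libraries overlapped those of Ctrl.

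Of the tested effectors, Ifi47 was more abundant than Iigp1. Its 3 Ctrl libraries stood at 111, 149.7 and 134 CPM. It was at 1394, 1694 and 1455 CPM with cGAMP, 1526, 1591 and 1351 with LPS, and 1424, 1510 and 1337 with SeV. The libraries of these ligands overlapped one another at about 11 times the Ctrl level (count ratios 11.6, 11.1 and 10.6). The log2 fold changes were 3.51 ± 0.27, 3.48 ± 0.27 and 3.41 ± 0.27. CpGB gave 745 ± 183 CPM (log2 2.52 ± 0.27) and HMW 329 ± 94.6 CPM (1.31 ± 0.28). PAM and Zymosan gave 208 ± 49.1 and 209.5 ± 46.5 CPM. All 3 libraries of each were above Ctrl, but their log2 fold changes of 0.63 ± 0.30 and 0.67 ± 0.30 were not called (adjusted p = 0.1247 and 0.1496).

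Iigp1, the effector Irga6, rose with SeV, cGAMP and LPS and was not called with the other 4 ligands. Ctrl stood at 27.7, 62.4 and 28.8 CPM (2, 5 and 3 counts). SeV brought it to 822, 606 and 530.0 CPM, cGAMP to 550.2, 514 and 429.6, and LPS to 365, 377 and 447. The log2 fold changes were 4.00 ± 0.55, 3.64 ± 0.55 and 3.34 ± 0.55. With CpGB, which raised Irgm1, Igtp and Ifi47 by at least 2.52 on the log2 scale, Iigp1 was at 77.6, 61.3 and 78.4 CPM (log2 0.87 ± 0.61, adjusted p = 0.311). The 9 libraries of SeV, cGAMP and LPS lay far above Ctrl, and those of CpGB overlapped its highest library. With PAM it was at 13.1, 20.1 and 16.7 CPM, below every Ctrl library, with HMW at 58.2, 22.4 and 13.9 and with Zymosan at 9.20, 32.0 and 23.3. None of these passed the test (log2 -1.17 ± 0.78 for PAM, adjusted p = 0.3382), on 9, 15 and 11 counts against 10 in Ctrl. The count ratio for PAM was 0.434 with an exact 95% interval of 0.156 to 1.19.

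The weaker calls rest on few counts. The call of Irgm1 with PAM was lost without Ctrl replicate 2 (log2 0.997, adjusted p = 0.1165), without Ctrl replicate 3 (1.23, 0.07318) and without PAM replicate 2 (1.18, 0.05206). Igtp with Zymosan was no longer called without Ctrl replicate 1 (log2 1.53, adjusted p = 0.2007), Ctrl replicate 3 (2.27, 0.09368) or Zymosan replicate 2 (1.81, 0.1281), and Ifi47 with HMW was lost without HMW replicate 2 (1.08, 0.05579). All 15 calls with LPS, SeV and cGAMP held whichever single library of that ligand or of Ctrl was left out. With replicate 2 of every group left out, Irgm1 was no longer called with PAM, HMW or Zymosan (adjusted p = 0.2544, 0.1187 and 0.1483), nor Ifi47 with HMW (0.08718). Without replicate 3 of every group, Irgm1 was lost with PAM (0.09344) and Zymosan (0.09294). Igtp with PAM was lost without replicate 1 (0.06553) or 3 (0.05825) of every group, and Igtp with Zymosan without any of the 3. With counts thinned to the smallest library 9 of the 25 calls were lost: all 7 with PAM, HMW and Zymosan (adjusted p from 0.2752 to 0.9974), and Irgm2 with LPS (log2 3.54, adjusted p = 0.08962) and cGAMP (2.85, 0.3153).

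Single ligands were then compared with each other, which needs no Ctrl library. For all 5 members LPS, SeV and cGAMP were above PAM, HMW and Zymosan in 45 of 45 tests, by 1.67 to 5.17 on the log2 scale. The ligands are grouped in this way, here and below, after the levels had been seen. Tallies by these groups therefore describe the data and give no separate support, and their tests share libraries and members that move together. The largest gap was that of Iigp1 between SeV and PAM, 5.17 ± 0.58. CpGB was above PAM, HMW and Zymosan in 12 of 15 tests, the exceptions being Irgm2. Irgm2 had 70 counts with cGAMP, 35 with CpGB and 20 with Zymosan. With counts thinned to the smallest library in a single random draw, 2 of its values changed sign. These were cGAMP minus CpGB (1.22 ± 0.32, to -0.52) and Zymosan minus cGAMP (-1.91 ± 0.38, to 0.27). Whether fewer counts alone explain this was not tested. LPS, SeV and cGAMP were above CpGB in 6 of 15 tests, 3 of them for Iigp1, which was 2.47 ± 0.33 (LPS), 2.77 ± 0.33 (cGAMP) and 3.13 ± 0.32 (SeV) higher than with CpGB. No test was called among LPS, SeV and cGAMP (15 tests, log2 -0.67 to 0.36) or among PAM, HMW and Zymosan (15 tests, -0.68 to 0.83) by edgeR; an unadjusted p under 0.05 was reached in 2 and 4 of these tests. Over all tested genes, 6.24% of these comparisons were called in the direction of the first-named ligand and 7.44% in the other, beside 63 calls in 105 member tests.

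Combinations were then compared with Ctrl. In the 63 stimulated groups, 294 of 315 member tests were called higher than Ctrl and 0 lower, where all tested genes gave 14.3% higher and 9.03% lower. Irgm1 was called in 63 of 63 groups, Igtp in 62, Ifi47 in 60, Irgm2 in 57 and Iigp1 in 52. All of the 63 contrasts share the 3 Ctrl libraries. The 11 tests of pairs and triplets that were not called lay in groups built from PAM, HMW, Zymosan and CpGB alone, and 7 of them were of Iigp1.

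**Figure D2:**
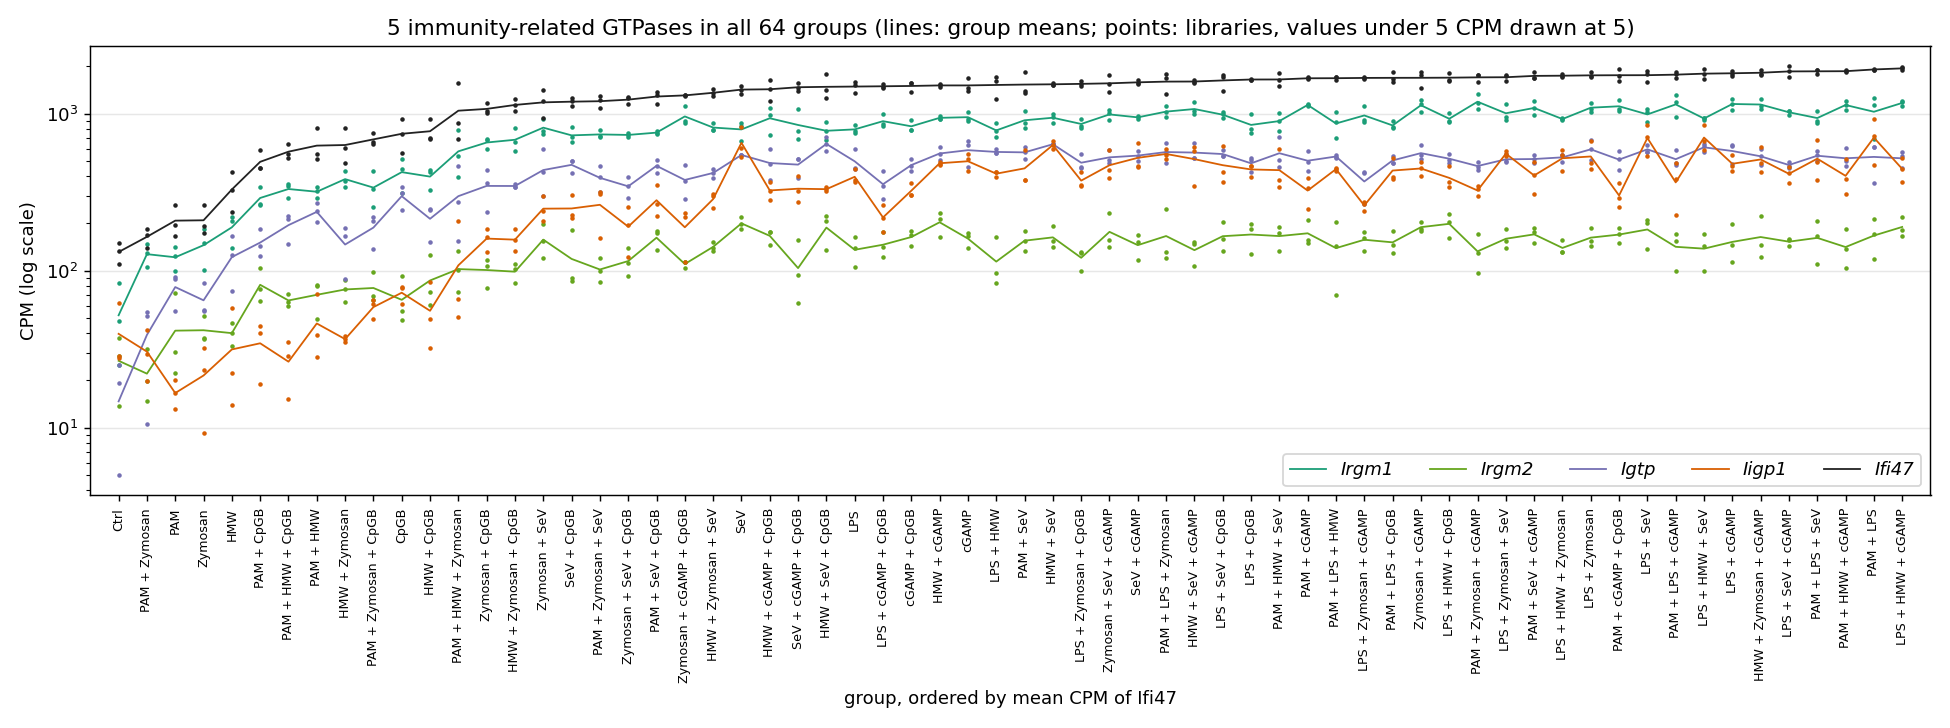
Levels of the 5 tested members in all 64 groups, ordered by the mean of Ifi47. The y axis is CPM on a log scale, lines join group means and points are libraries, with values under 5 CPM drawn at 5. The 15 leftmost groups are those without LPS, SeV or cGAMP, and the lines flatten to the right of them.

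The groups can be parted by whether they hold LPS, SeV or cGAMP; this split was made after the levels had been seen and carries no test. For Ifi47, the 49 groups with at least 1 of these ligands had means from 1181 to 1944 CPM and the 15 groups without had means from 132 to 1137. For Irgm1 the means ran from 728 to 1192 CPM with and from 52.0 to 682 without. For Iigp1 they ran from 189 to 704.7 CPM with and from 16.6 to 160.2 without. In these 3 genes no group of the lower set reached the higher set. Irgm2 (102 to 203.5 CPM against 22.1 to 102) and Igtp (345 to 642 against 14.7 to 347) met at the border: for Irgm2 the PAM + HMW + Zymosan triplet overlapped the upper set, and for Igtp Zymosan + CpGB and HMW + Zymosan + CpGB did. The libraries of that triplet had Irgm2 at 132.9, 101.2 and 73.2 CPM, and only replicate 1 lay above the lowest mean of the upper set (101.8). Single libraries overlapped more, since the lowest and highest library of the 2 sets were 934 and 1563 CPM for Ifi47 (the lowest with, the highest without).

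The group with the highest mean differed between members. Irgm1 was highest with PAM + Zymosan + cGAMP (1192 ± 130 CPM), Irgm2 with HMW + cGAMP (203.5 ± 36.0), Igtp with HMW + SeV + CpGB (642 ± 65.97), Iigp1 with LPS + HMW + SeV (704.7 ± 132) and Ifi47 with LPS + HMW + cGAMP (1944 ± 52.0). With the 64 groups of a gene placed in order, the libraries of 2 of the 63 neighbouring pairs did not overlap for Irgm1, Igtp and Ifi47, and those of 1 pair for Irgm2 and for Iigp1. Sorting by mean puts similar groups side by side, so these counts cannot say whether groups differ, only that exact ranks are uncertain. The same count was not made for other genes. For Irgm1 the step from Ctrl to PAM, the next group up, was 1 of its 2 pairs without overlap. At the bottom, Ctrl was the lowest group for Irgm1, Igtp and Ifi47, while PAM + Zymosan was lowest for Irgm2 (22.1 ± 8.62 CPM) and PAM for Iigp1 (16.6 ± 3.49).

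Adding a second ligand to a first was tested in 42 contrasts, again without Ctrl. Adding LPS, SeV or cGAMP to PAM, HMW or Zymosan raised all 5 members each time, in 45 of 45 tests and by 1.48 to 5.36 on the log2 scale. This tally too uses the grouping of ligands made after the levels had been seen. Adding any ligand to LPS, SeV or cGAMP raised none by the threshold in 90 tests with edgeR, where 12 had a positive change with an unadjusted p under 0.05. Of these, 4 also had an adjusted p under 0.05 and missed only the fold threshold, all on top of LPS: Irgm1 with cGAMP (0.54, adjusted p = 0.005394) or Zymosan (0.46, 0.02253) added, and Iigp1 with PAM (0.85, 0.001313) or SeV (0.82, 0.0307) added. In all, 70 of 210 tests were called higher and 3 lower, beside 4.86% and 2.52% of all tested genes.

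**Figure D3:**
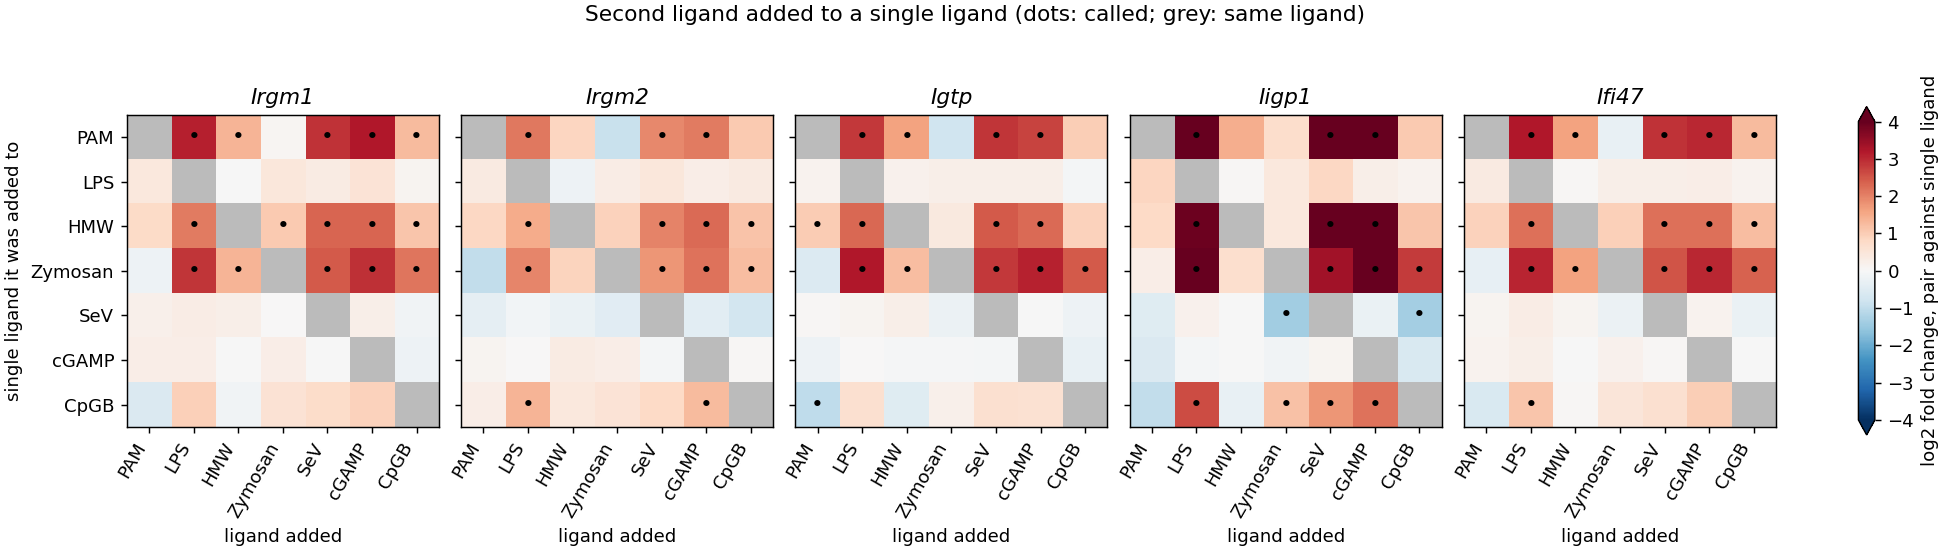
Log2 fold change of each pair against each of its single ligands for the 5 tested members; columns give the ligand added, rows the ligand it was added to, colour the log2 fold change (values beyond 4 take the darkest colour) and dots the called tests. The rows of LPS, SeV and cGAMP are pale, apart from Iigp1 when Zymosan or CpGB was added to SeV.

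Added to CpGB, the ligands LPS, SeV and cGAMP raised members in 6 of 15 tests: LPS raised Irgm2 (1.35 ± 0.31), Iigp1 (2.60 ± 0.32) and Ifi47 (1.11 ± 0.14), cGAMP raised Irgm2 (1.25 ± 0.32) and Iigp1 (2.16 ± 0.34), and SeV raised Iigp1 (1.77 ± 0.35). With counts thinned to the smallest library the value of Irgm2 with LPS added to CpGB turned to -0.78. The other rises came from pairs among HMW, PAM, Zymosan and CpGB. HMW added to PAM raised Irgm1 by 1.37 ± 0.22, Igtp by 1.59 ± 0.29 and Ifi47 by 1.61 ± 0.19 on the log2 scale. Added to Zymosan, HMW raised the same 3 genes by 1.37 ± 0.22, 1.23 ± 0.33 and 1.61 ± 0.19. CpGB added to Zymosan raised all 5 members, by 2.13 ± 0.21 for Irgm1, 1.23 ± 0.39 for Irgm2, 2.45 ± 0.31 for Igtp, 2.79 ± 0.55 for Iigp1 and 2.35 ± 0.19 for Ifi47. CpGB added to HMW raised Irgm1, Irgm2 and Ifi47, and added to PAM it raised Irgm1 and Ifi47. PAM and Zymosan added to each other raised none of the 5: the pair stood at 127 ± 21.1 CPM for Irgm1, 39.0 ± 24.7 for Igtp, 164 ± 22.7 for Ifi47 and 22.1 ± 8.62 for Irgm2, within the range of the means of the single ligands or below it. Iigp1 was at 30.5 ± 11.1 CPM, above both means (16.6 with PAM and 21.5 with Zymosan) but with overlapping libraries.

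Of the 3 calls in the lower direction, 2 were of Iigp1 on top of SeV. Iigp1 stood at 822, 606 and 530.0 CPM with SeV alone and at 303, 226 and 218 with SeV + CpGB. The groups did not overlap, and the change was -1.36 ± 0.24 on the log2 scale (adjusted p = 6.094e-07). With Zymosan + SeV it stood at 300.0, 239 and 207 CPM, a change of -1.38 ± 0.24 (adjusted p = 2.171e-06). With counts thinned to the smallest library neither was called (-1.71, adjusted p = 0.3331, and -2.01, adjusted p = 0.2366). The other members did not fall by the threshold in these pairs: Ifi47 was at 1193 ± 71.1 CPM with SeV + CpGB and 1181 ± 239 with Zymosan + SeV, beside 1424 ± 86.6 with SeV alone. The third was Igtp, which went from 298 ± 50.6 CPM with CpGB to 151 ± 31.1 with PAM + CpGB (log2 -1.0003 ± 0.26, adjusted p = 0.008014), a value that lies on the fold threshold; with the replicate block it was -0.998, and without replicate 3 of every group it was -0.869 (adjusted p = 0.2922), neither of them called. On LPS, adding PAM gave Iigp1 levels of 474, 919 and 720 CPM against 365, 377 and 447 with LPS alone (log2 0.85 ± 0.19, adjusted p = 0.001313, under the fold threshold).

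A pair was next asked to exceed both of its single ligands. In 3 of 105 tests the pair was at least 1 on the log2 scale above each, beside 0.353% of all tested genes: Irgm1 with HMW + Zymosan (1.05 above the nearer single ligand, adjusted p = 4.264e-05), Igtp with PAM + HMW (1.02, 0.004118) and Iigp1 with Zymosan + CpGB (1.18, 0.04465). No pair fell below both, where the background was 0.0504%. With no fold threshold 10 tests passed (background 0.805%). Irgm1 with HMW + Zymosan stood at 343, 372 and 434 CPM, above all libraries of HMW (139 to 219.7) and of Zymosan (101 to 186). Iigp1 with Zymosan + CpGB stood at 132, 164 and 184 CPM, above CpGB (61.3 to 78.4) and Zymosan (9.20 to 32.0). Ifi47 exceeded both singles without the fold threshold in HMW + Zymosan (0.97), PAM + HMW (0.93) and Zymosan + CpGB (0.49). The Zymosan + CpGB call was lost with no filter on low counts, RLE factors, library size alone and thinning, and without replicate 1 or 3 of every group. That of HMW + Zymosan was lost with thinning and without replicate 3. The 3 calls made with the fold threshold depended on the libraries and the scaling. Without replicate 3 of every group none of them remained, and with library size as the only scaling none did either. There Irgm1 with HMW + Zymosan missed only the fold threshold (0.89, adjusted p = 0.001036 by edgeR).

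Pair effects were also set against the sum of the single effects on the log2 scale. The interaction was negative in 45 of 105 tests and positive in 0 (3 positive ones had an unadjusted p under 0.05 with edgeR), where 3.5% of all tested genes were negative and 1.08% positive. It was negative in 14 of 21 pairs for Igtp, 12 for Irgm1, 11 for Ifi47 and 4 each for Irgm2 and Iigp1. All 15 tests of pairs among LPS, SeV and cGAMP were negative. For Ifi47 with SeV + cGAMP the interaction was -3.36 ± 0.30 (adjusted p = 2.936e-25): the single ligands gave 1424 and 1514 CPM, the pair 1584 ± 55.1 CPM and Ctrl 132 ± 19.6 CPM. For Igtp in the same pair it was -5.15 ± 0.78, where the pair stood at 541 ± 40.4 CPM. A negative value here means that the pair was less than the product of the single fold changes, not that it was below either. All 21 interactions use the 3 Ctrl libraries, so they are not independent of each other. With counts thinned to the smallest library the number of negative calls was 19, and the Ifi47 interactions of PAM + CpGB and HMW + cGAMP changed sign, to 0.014 and 0.33.

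Triplets were last set against the pairs inside them. No triplet of 35 exceeded all 3 of its pairs by the threshold for any of the 5 members by edgeR's test (0 of 175 tests; background 0.0115%), and none fell below them (background 0%); the unadjusted p was under 0.05 in 3 tests above and 3 below. With no fold threshold, Ifi47 in PAM + HMW + Zymosan was the single call (0.68 above the nearest pair, adjusted p = 0.001507; background 0.0297% higher and 0.00182% lower). That group holds a library that stands apart: Ifi47 was at 1563, 693 and 878 CPM in its 3 libraries, Irgm1 at 793, 393 and 542, Igtp at 465, 156 and 274, and Iigp1 at 208, 50.6 and 65.9. Replicate 1 was the highest in each, and without it the Ifi47 value was 0.30 with an unadjusted p of 0.04313 and an adjusted p of 1.

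The average effect of a ligand was taken over the 22 backgrounds that lack it (Ctrl, the other single ligands and their pairs). LPS, SeV and cGAMP raised all 5 members on average (15 of 15 tests), and the other 4 ligands raised 11 of 20 and lowered 1. The call here has no fold threshold, and over all tested genes 21.1% were called higher and 19.2% lower. Differences between ligands in these averages were not tested. The averages share Ctrl and many libraries across ligands.

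**Figure D4:**
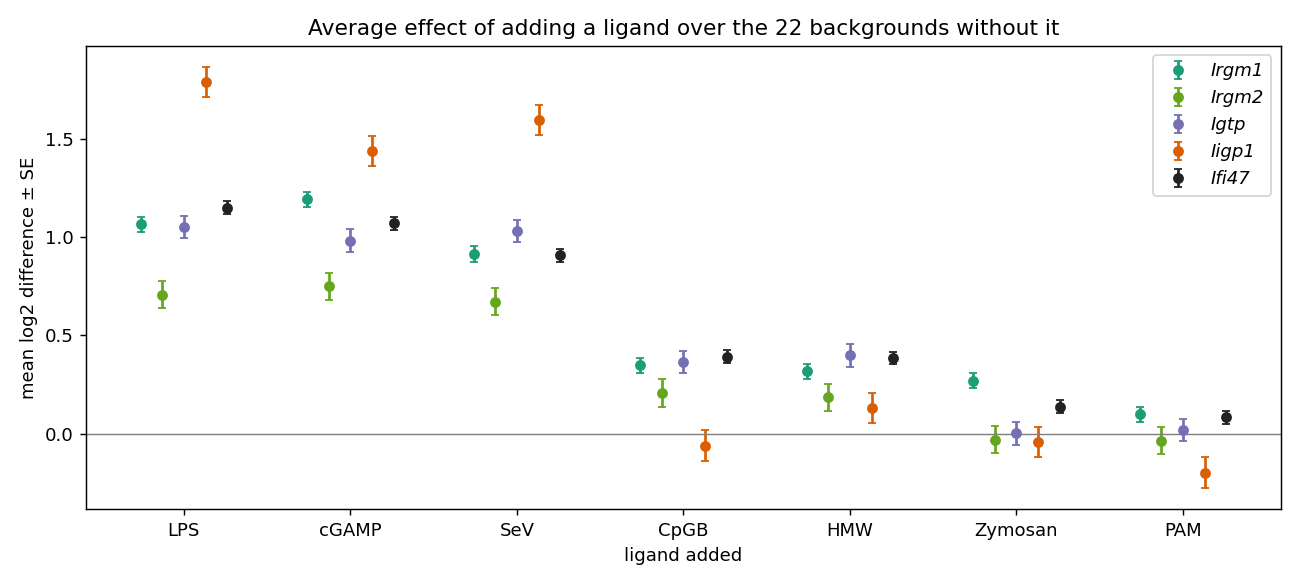
Mean log2 difference made by adding each ligand over the 22 backgrounds without it, for the 5 tested members; points are estimates, bars are standard errors and the grey line marks 0. Iigp1 is the highest of the 5 with LPS, SeV and cGAMP and lies at or under 0 with CpGB, Zymosan and PAM.

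LPS had the largest average effect on Iigp1, 1.79 ± 0.08, followed by SeV with 1.60 ± 0.08 and cGAMP with 1.44 ± 0.08. For Irgm1 the order was cGAMP (1.19 ± 0.04), LPS (1.06 ± 0.04) and SeV (0.91 ± 0.04). Igtp moved by 1.05 ± 0.06 with LPS, 1.03 ± 0.06 with SeV and 0.98 ± 0.06 with cGAMP, and Ifi47 by 1.15 ± 0.03, 0.91 ± 0.03 and 1.07 ± 0.03. Irgm2 had the smallest averages, 0.67 to 0.75. CpGB raised Irgm1 (0.35 ± 0.04), Irgm2 (0.21 ± 0.07), Igtp (0.36 ± 0.06) and Ifi47 (0.39 ± 0.03), while Iigp1 was at -0.06 ± 0.08 (adjusted p = 0.6487). HMW raised Irgm1, Igtp and Ifi47 by 0.32, 0.40 and 0.38. Zymosan raised Irgm1 by 0.27 ± 0.04 and Ifi47 by 0.14 ± 0.03. With PAM the averages were 0.10 ± 0.04 for Irgm1, 0.08 ± 0.03 for Ifi47 and -0.20 ± 0.08 for Iigp1 (adjusted p = 0.02925), the only average called lower. That call was lost with no filter on low counts, with thinning to the smallest library and without replicate 2 of every group, where 0 averages were called lower. The PAM averages of Irgm1, Igtp and Ifi47 take the opposite sign (-0.03, -0.11 and -0.04) when library size alone scales the counts, which shifts every PAM average by -0.13.

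The members were then compared with one another. Across the 64 group means on the log2 scale, Pearson's r was 0.98 between Irgm1 and Ifi47, 0.97 between Igtp and Ifi47 and 0.94 between Irgm2 and Ifi47, and 0.88 to 0.90 between Iigp1 and the other 4. These are descriptions: the 64 groups share ligands and library preparation. Counts of Iigp1 per 100 counts of Ifi47 from the same libraries ran from 4.71 with PAM + HMW + CpGB (18 and 382 counts) to 44.1 with SeV alone (278 and 631).

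**Figure D5:**
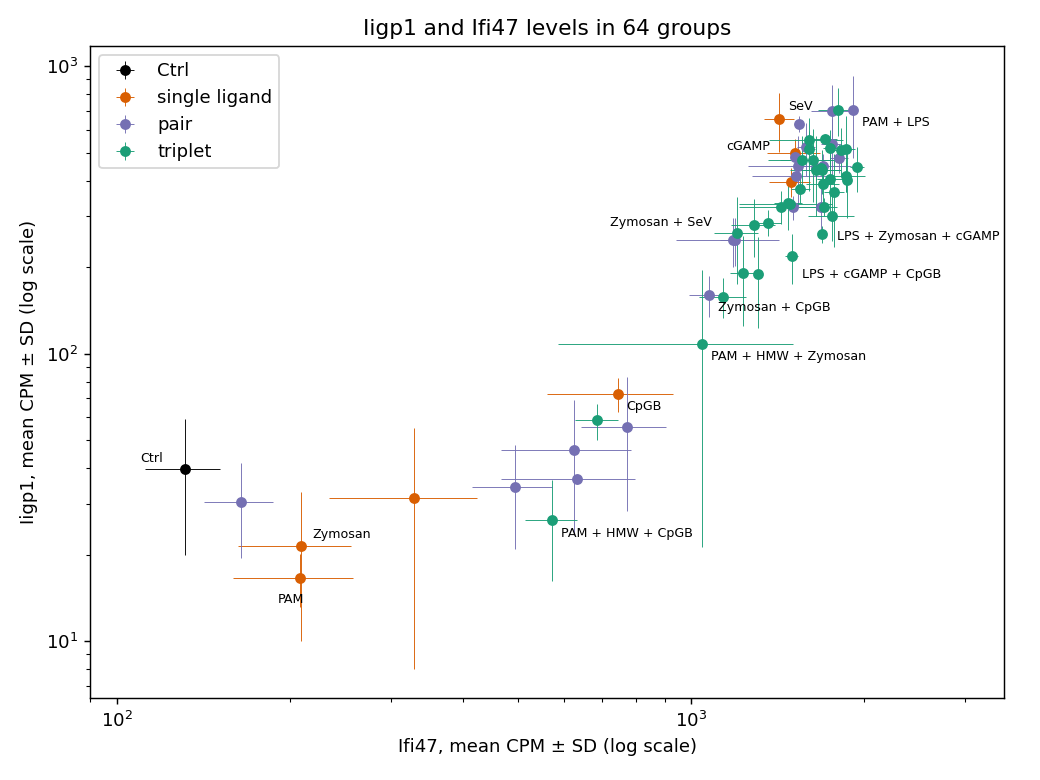
Mean CPM of Iigp1 against mean CPM of Ifi47 in the 64 groups, both axes on log scales; points are group means, bars are SDs of 3 libraries and colours give the number of ligands. From Ctrl to CpGB, Ifi47 goes from 132 to 745 CPM while Iigp1 goes from 39.6 to 72.4; the steep part of the cloud holds the groups with LPS, SeV or cGAMP.

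For each member, the gene outside the family with the most similar pattern over the 64 groups was taken from 4715 tested genes. It was Ifit1 for Irgm1 (r = 0.98), Ifit2 for Irgm2 (0.94), Nt5c3 for Igtp (0.97), Pyhin1 for Ifi47 (0.99) and Serpina3g for Iigp1 (0.96), while the median r over all these genes was between -0.10 and -0.09. Serpina3g, a serine protease inhibitor, stood at 84.8 ± 23.6 CPM in Ctrl, 2582 ± 268 with SeV, 1417 ± 177 with LPS, 1388 ± 68.4 with cGAMP and 339 ± 137 with CpGB. Pyhin1, a nuclear protein of the Ifi200 family, stood at 83.8 ± 15.2 CPM in Ctrl and at 1332 ± 107 with cGAMP and 561 ± 34.9 with CpGB.

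Other genes of the pathway were counted from lists. Of 10 further IRG-related genes 4 were tested (Gm12250, Gm4951, Gm5431 and F830016B08Rik): all 4 rose with LPS and SeV, 3 with cGAMP, 1 with CpGB and 0 with PAM, HMW or Zymosan. Gm12250, also known as Irgb10, was at 11.97 CPM in Ctrl on 3 counts, 237 ± 39.5 with SeV, 174 ± 38.8 with cGAMP and 133 ± 26.0 with LPS. The guanylate-binding proteins, which act on the same vacuoles, had 8 of 11 genes tested: all 8 rose with LPS, SeV and cGAMP, 6 with CpGB, 2 with PAM and 0 with HMW or Zymosan. Their median log2 fold change was 4.18 with LPS, beside -0.06 over all tested genes. Gbp2 went from 199 ± 69.4 CPM in Ctrl to 3583 ± 214 with LPS and to 779 ± 109.5 with PAM.

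Among 15 genes of interferon signalling, 9 rose with LPS, 10 with SeV, 10 with cGAMP, 7 with CpGB, 6 with PAM and 3 each with HMW and Zymosan, while 1 fell with each of LPS, SeV, cGAMP, CpGB and PAM. Ifnb1, which encodes interferon beta, was at 11.97 ± 2.17 CPM in Ctrl (3 counts). It rose with SeV (251 ± 8.63 CPM, log2 4.33 ± 0.97) and cGAMP (195.6 ± 78.8 CPM, 3.93 ± 0.97), and was at 13.4 ± 11.8 CPM with LPS (log2 0.32 ± 1.12, adjusted p = 0.8584) on 8 counts. Stat2, a transcription factor of the type I interferon response, rose with all 7 ligands, from 84.9 ± 54.9 CPM in Ctrl to 663 ± 42.7 with LPS and 548 ± 35.8 with cGAMP. Irf1, an interferon regulatory factor, rose with LPS (391 ± 60.3 CPM), SeV (637 ± 92.6) and cGAMP (622.5 ± 37.0), but its change with CpGB was not called (166 ± 95.2 CPM beside 107 ± 27.4 in Ctrl, adjusted p = 0.05991).

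Of 11 genes of the autophagy conjugation machinery 10 were tested. Of these, 0 to 1 rose and 0 to 3 fell with each ligand, and their median log2 fold change lay between -0.43 and 0.08. Over the 7 ligands 8.7% of all tested genes were called higher and 4.95% lower. Over all 63 conditions, 30 of 630 tests of these genes were called higher and 118 lower, beside 14.3% and 9.03% of all tested genes. Gabarapl2 was at 93.4 ± 38.9 CPM in Ctrl and 40.2 ± 3.97 with LPS (log2 -1.18 ± 0.46, adjusted p = 0.03483). Atg5 was at 39.6 ± 15.3 CPM in Ctrl and 36.6 ± 7.32 with LPS, and was not called with any single ligand. Marker genes of other cell types were tested beside the members, with 2641 ± 85.9 CPM in sum for the macrophage markers in Ctrl. Of the 4 macrophage markers tested (C1qa, C1qb, Csf1r and Fcgr1), 1 rose and 2 fell with LPS, 2 fell with PAM, and 1 rose with each of SeV, cGAMP and CpGB, and their part in the results above was not tested. Of the 6 dendritic cell markers tested (all but Zbtb46 and Flt3), 0 rose and 1 fell (with LPS) over the 7 single ligands. Over all 63 conditions, 54 tests of macrophage markers were called higher and 60 lower of 252, and 0 tests of dendritic cell markers higher and 13 lower of 378.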

How the data were processed

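mRNA was measured in 64 groups of 3 libraries. The authors deposited a table of UMI counts per gene, not normalized. Per the labels' protocols, RNA was reverse transcribed with template switching, pooled and tagmented with Nextera XT. The submitters' processing notes name BWA 0.7.15 and mm10; how reads that match several genes or overlapping genes were counted is not given in the sources used here. All columns were mapped to samples by title. Counts were fitted in R 4.3.3 with edgeR 4.0.16 (quasi-likelihood, 1 model of all 64 groups, TMM factors, filterByExpr by group), which kept 4720 genes holding 95.72% of the counts. P-values were adjusted by Benjamini-Hochberg over all tested genes within each contrast, and calls were made below 0.05 where the log2 change was also 1 or more in size, unless stated. Where a pair or triplet was set against several groups, the largest p was adjusted. Standard errors come from the fit's working weights. CPM are per 1000000 TMM-scaled counts of tested genes. Intervals are exact at 95% and, like floors (3 counts), cover counting error only. Correlations use log2 CPM with a prior count of 2. The method was also run on simulated data, and the outcome is not given here.

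The members and the lists were chosen with earlier results of these data known. Named are the 7 members, the most similar gene of each, and genes set from the lists by the design. Alternatives were DESeq2 1.42.0, other scaling, no filter, thinning to the smallest library, the replicate block, summed Tgtp1 and Tgtp2, and left-out replicates.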

Additional observations from a re-analysis of the deposited data

Results flagged for a closer look

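Negative interactions, tested directly as the difference between a ligand's effect alone and its effect on top of another ligand, were found in 12 of 21 pairs for Irgm1, 4 for Irgm2, 14 for Igtp, 4 for Iigp1 and 11 for Ifi47. None was positive. Over all tested genes 3.5% were negative and 1.08% positive. With counts thinned to the smallest library 19 were negative in place of 45. All of them use the 3 Ctrl libraries, in which the members had between 4 (Igtp) and 34 (Ifi47) counts in sum.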

How the results depend on the processing

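Of 19 counts of calls, those for LPS, SeV, cGAMP and CpGB alone, for every condition against Ctrl, between single ligands and for averages called higher stayed within 1.5 times under every setting run. With counts thinned to the smallest library, the calls alone were 0 for PAM, 0 for HMW and 0 for Zymosan, second-ligand calls were 44 higher and 0 lower, pairs past both single ligands 1, negative interactions 19 and averages called lower 0. DESeq2 called 1 member with PAM and 1 with Zymosan, RLE factors gave 1 for Zymosan and 1 pair past both, and library size alone gave 0 such pairs and 2 averages called lower. With no filter on low counts these were 5 and 0, and with no fold threshold 10 pairs and 1 triplet passed. Fits of PAM and Ctrl alone and of Zymosan and Ctrl alone called 1 member each, with fewer members passing the filter there. With single replicates left out, the counts ran from 0 to 2 for PAM, 1 to 3 for HMW, 0 to 2 for Zymosan, 0 to 5 for pairs past both, 0 to 1 for the triplet and 0 to 1 for averages called lower. Signs turned as follows, among them 7 values that were called: the averages of Irgm1 (0.10) and Ifi47 (0.08) with PAM and, with thinning, Irgm2 in Zymosan minus cGAMP (-1.91 before), in cGAMP minus CpGB (1.22) and with LPS added to CpGB (1.35), and the Ifi47 interactions of PAM + CpGB (-1.25) and HMW + cGAMP (-1.32). Thinning gave 0.41 for Iigp1 with HMW, 0.19 for Iigp1 with Zymosan and -0.14 for Ifi47 with PAM against Ctrl, 0.27 for Irgm2 in Zymosan minus cGAMP, -0.52 in cGAMP minus CpGB and -0.78 with LPS added to CpGB, 0.014 and 0.33 for the Ifi47 interactions of PAM + CpGB and HMW + cGAMP, and averages of -0.0070 (Ifi47, PAM), -0.18 (Igtp, PAM), -0.014 (Iigp1, HMW), -0.28 (Igtp, Zymosan) and 0.34 (Irgm2, Zymosan). Library size alone gave averages of -0.043 (Ifi47, PAM), -0.11 (Igtp, PAM), -0.029 (Irgm1, PAM) and -0.046 (Igtp, Zymosan), and RLE factors -0.018 (Igtp, PAM) and -0.020 (Igtp, Zymosan). With single replicates left out, values with a changed sign ran against Ctrl from -1.156 to 0.13 (Iigp1, HMW) and from -0.23 to 1.018 (Irgm2, PAM; -0.0096 without PAM replicate 1). Averages ran from -0.023 to 0.040 (Igtp, PAM), -0.167 to 0.062 (Irgm2, PAM), -0.030 to 0.066 (Igtp, Zymosan; -0.019 without replicate 3), -0.103 to 0.079 (Iigp1, Zymosan), -0.086 to 0.064 (Irgm2, Zymosan) and -0.1496 to 0.044 (Iigp1, CpGB). The cause was not tested. Thinning and left-out libraries leave fewer counts, but the thinned counts were a single random draw, and whether depth alone explains their values is not known. Scaling by library size alone shifted the median log2 change of all tested genes against Ctrl by -0.034 to -0.297, and RLE factors by -0.073 to -0.145. Replicate numbers did not meet the bar set for pairing: the mean correlation of deviations between libraries of the same number was 0.0083. Yet 167 libraries correlated best with their own number, where a number that carries nothing would give about 64, a hint from the data, not the design, of a weak shared component. The replicate block changed 1 of 265 single calls and left 294 calls against Ctrl, 63 between single ligands, 70 second-ligand calls higher and 2 lower, 3 pairs past both, 45 negative interactions, 0 triplets and averages of 26 higher and 1 lower. Depth limits the values in Ctrl, where the members had 4 to 34 counts.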
